A study of Homo sapiens with 8 samples.

Results

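Cells make cholesterol and fatty acids from acetyl-CoA, and the results here concern the genes of that synthesis and of sterol export in Raji, an established line of human Burkitt lymphoma B cells. The genes were chosen by name, as 31 of the 25377 rows of the RNA table, and the ATAC peaks by the gene to which the authors' annotation assigns them, as 111 of 70312 peaks. Earlier results of these data were known when the genes were chosen. All 31 genes were tested, and the 111 peaks belonged to 30 of them, since no peak carried the name MVD. By role they were 18 enzymes of cholesterol synthesis, 4 genes of SREBP control, 2 of sterol transport, 4 of fatty acid synthesis and 3 export genes of the kind that LXR regulates.

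The genotypes were the RGS-SE knockout (KO) and wild-type (WT) Raji. In KO cells a super-enhancer lying between RGS1 and RGS13 on chromosome 1 had been removed with Cas9 and a pair of guide plasmids, and single clones were taken after puromycin selection. The labels do not give the number of clones, so that the deletion and the clone cannot be told apart. All cells grew in medium with 10% fetal bovine serum, which itself supplies lipoprotein cholesterol. RNA-seq of poly(A) RNA was done alongside ATAC-seq, in which a transposase cuts open chromatin of about 50000 cells, each on 2 KO and 2 WT libraries, 8 in all, labelled as biological replicates.

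Cholesterol synthesis runs from acetyl-CoA through mevalonate and farnesyl diphosphate to squalene, and then through lanosterol to cholesterol. When sterol in the endoplasmic reticulum falls, SCAP escorts the SREBP transcription factors to the Golgi, where they are cut free and switch on genes of synthesis and uptake, while INSIG proteins hold SCAP back when sterol is plentiful. LXR receptors sense oxysterols and switch on the opposite arm, with export pumps such as ABCA1 and ABCG1 and the ubiquitin ligase MYLIP, which removes lipoprotein receptors.

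Counts per library were recovered as whole numbers from the digits of the deposited means, and a normalised count is a count divided by its library's size factor. The KO libraries are called a and b and the WT libraries a and b, since they could not be tied to the labels' replicate numbers. The recovered RNA counts summed to 29868725 and 28898871 in KO and to 35303407 and 20059471 in WT, and the ATAC counts to between 18173282 and 21903113. A positive fold change was taken as higher in KO. The reason is the peak chr1:192609102-192609836, which had 0 and 0 reads in one genotype, taken as KO, against 679 and 592 in the other. Of the 18 peaks in the interval that the labels give, chr1:192515157-192741754, only this one is described here. If the tables were coded the other way, every direction would turn. RGS1, on one side of the super-enhancer, had 4840.2 and 4805 normalised counts in KO and 471 and 385 in WT. RGS13, on the other side, had 5630 and 5540 in KO and 8099 and 4690 in WT. It was not called (the authors' deposited table, log2 -0.20, SE 0.22, adjusted p 0.628). All 8 B cell markers were in the table, at 3183 summed CPM (counts scaled to a common library total), and their summed normalised counts were 122412 and 121143 in KO and 86087 and 88305 in WT. Of the other lists, 2 of 8 T and NK markers summed to 0.249 CPM, 4 of 7 myeloid markers to 1.60, and 3 of 8 epithelial, fibroblast and erythroid markers to 6.30, nearly all of it COL1A1. The part of these marker levels in the results below was not tested.

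The WT RNA libraries stood apart from each other more than the KO libraries did. Over 10603 tested genes with a mean of at least 100, the higher library exceeded the lower by a median factor of 1.05 in KO and 1.21 in WT. Among the members other than ABCG1 the same factor had a median of 1.03 in KO and 1.19 in WT, and it reached 1.75 in WT for IDI1. The results below are therefore also given with each library left out in turn. The labels do not say whether the biological replicates were separate cultures, so the p-values measure the spread between these libraries only.

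RNA of 10 of the 18 enzymes of cholesterol synthesis was higher in KO cells and that of 1 lower, while fatty acid synthesis genes were not called and the export pump ABCA1 was much lower. Of the 31 genes, 12 rose and 3 fell at an adjusted p under 0.05 of the authors' DESeq2 Wald test, and 16 did not pass. Over all 17013 tested genes 9.89% were higher, 9.28% were lower and 19.2% were called in either direction. The median log2 fold change of the members was 0.21, against 0.02 over all tested genes. Because earlier results of these data were known when the genes were chosen, these contrasts are descriptions and not tests. The 12 that rose were ACAT2, HMGCS1, IDI1, FDPS, FDFT1, LSS, CYP51A1, MSMO1, NSDHL, SC5D, INSIG1 and STARD4, and the 3 that fell were PMVK, SREBF1 and ABCA1. Both KO libraries lay outside the range of the WT libraries for 25 of the 31, 16 of them higher and 9 lower, where 63.0% of all tested genes with recovered counts did so, 32.7% higher and 30.3% lower. In bulk RNA, fewer cells that express a gene and less RNA per cell cannot be told apart. Reads of 13 of the 31 genes could also come from a gene on the other strand that shares exonic bases with them, since the kit keeps strand but its use in the counting is not given in the sources used here.

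**Figure D1:**
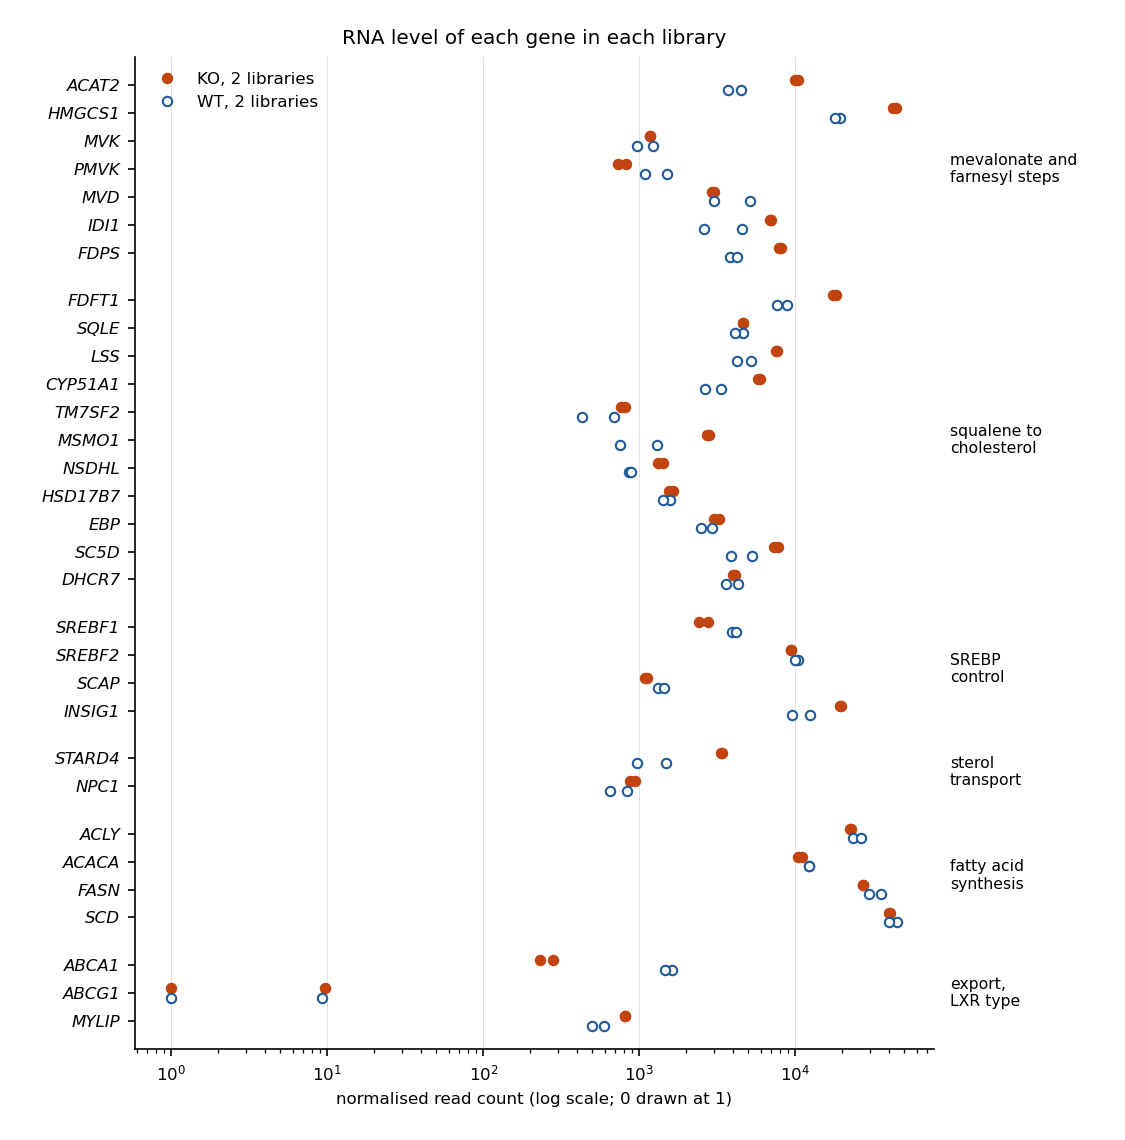
Normalised RNA count of the 31 genes in each library, on a log axis, with KO libraries as filled points above the open points of WT libraries. The 2 KO points nearly coincide for most genes and the WT points lie farther apart, as for IDI1 and MSMO1, while ABCA1 is far lower in KO.

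Among the 7 genes of the mevalonate and farnesyl steps, 4 rose, 1 fell and 2 did not pass, with a median of 0.96. HMGCS1, the cytosolic HMG-CoA synthase, with the highest mean level per kilobase of exon among the 18 enzymes, had 42192 and 44113 normalised counts in KO cells, against 19288 and 17879 in WT cells. The rise was 1.22 on the log2 scale (the authors' deposited table, SE 0.14, adjusted p 2.65e-15), and the lower KO library was 2.19 times the higher WT library. A long noncoding RNA on the other strand shares 37.7% of the exonic bases of HMGCS1. ACAT2, the cytosolic thiolase that makes acetoacetyl-CoA ahead of it, had 9886 and 10355 in KO and 3703 and 4451 in WT, a rise of 1.31 (the authors' deposited table, SE 0.16, adjusted p 4.55e-14). The ATAC peaks within 1 Mb of ACAT2 had a median log2 change of 0.54, whose part in this result was not tested. FDPS, which makes farnesyl diphosphate, had 7820.1 and 8079 in KO and 3823 and 4204 in WT, and rose by 0.99 (the authors' deposited table, SE 0.15, adjusted p 6.76e-09). IDI1, the isopentenyl diphosphate isomerase, had 6917 and 6924 in KO and 4526 and 2592 in WT. It rose by 0.96 (the authors' deposited table, SE 0.22, adjusted p 2.52e-04), while its WT libraries differed by a factor of 1.75 and the peaks around it had a median of 0.43. With that median taken off, IDI1 was not called. FDPS and IDI1 have 8 and 3 pseudogenes named after them, with which their reads could be mixed, so both values are uncertain to that extent.

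The steps between these behaved differently. PMVK, the phosphomevalonate kinase, had 823 and 728 normalised counts in KO and 1089.8 and 1509 in WT, and fell by 0.74 (the authors' deposited table, SE 0.23, adjusted p 0.00933). MVK, the mevalonate kinase ahead of it, had 1178 and 1167 in KO, within the WT values of 966 and 1219 (the authors' deposited table, log2 0.10, SE 0.21, adjusted p 0.821). MVD, the decarboxylase after it, had 3004 and 2927 in KO and 3022 and 5094 in WT, so that the lower WT library sat beside the KO pair and the other lay well above it. Its log2 change was -0.45 (the authors' deposited table, SE 0.22, adjusted p 0.152).

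The promoters of 3 genes whose RNA rose are shown because their start-site ATAC peaks, described further on, were not called. They are RefSeq windows on GRCh38.p14 from 250 bases before to 50 after a start site, written along the gene: HMGCS1 at chr5:43313363-43313662 on the minus strand, FDPS at chr1:155308616-155308915 on the plus strand and MSMO1 at chr4:165327419-165327718 on the plus strand. Capitals mark CCAAT boxes, read on both strands as CCAAT or ATTGG, and E-boxes, CACGTG.
HMGCS1: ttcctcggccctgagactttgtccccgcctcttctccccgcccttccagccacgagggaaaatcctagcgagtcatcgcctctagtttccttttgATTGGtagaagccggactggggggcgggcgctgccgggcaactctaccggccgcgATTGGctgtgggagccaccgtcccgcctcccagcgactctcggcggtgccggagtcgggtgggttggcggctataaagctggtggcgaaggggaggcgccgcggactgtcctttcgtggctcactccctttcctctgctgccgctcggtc
FDPS: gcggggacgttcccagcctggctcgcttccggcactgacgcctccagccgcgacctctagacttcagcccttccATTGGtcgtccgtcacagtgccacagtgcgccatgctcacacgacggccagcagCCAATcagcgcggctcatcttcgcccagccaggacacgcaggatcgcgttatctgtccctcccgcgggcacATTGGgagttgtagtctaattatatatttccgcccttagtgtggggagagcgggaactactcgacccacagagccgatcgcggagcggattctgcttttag
MSMO1: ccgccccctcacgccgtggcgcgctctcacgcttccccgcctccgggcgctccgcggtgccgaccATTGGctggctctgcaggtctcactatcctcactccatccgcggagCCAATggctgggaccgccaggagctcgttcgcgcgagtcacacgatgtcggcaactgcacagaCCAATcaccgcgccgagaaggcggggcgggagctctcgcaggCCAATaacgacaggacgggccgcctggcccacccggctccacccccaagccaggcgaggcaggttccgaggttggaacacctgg
HMGCS1 had 2 CCAAT boxes in the window shown, FDPS had 3 and MSMO1 had 4, and none of these windows held an E-box. A second window of HMGCS1, at chr5:43313132-43313431, held 0 CCAAT boxes. That of CYP51A1, another gene whose RNA rose and whose start-site peak was not called, also held 0. Of the 31 genes, 26 had RefSeq windows, 34 in all, and 20 of the 26 had a CCAAT box in at least one window. By window, 70.6% of the members' 34 windows held one, against 34.6% of all 35116 promoter windows and 35.9% of the 13975 windows of tested protein-coding genes. Some member windows overlap, as for ACLY, SC5D and IDI1, so that shared bases count more than once. The sterol regulatory element written TCACNCCAC was in the window of SREBF2 alone among the members, and in 1.13% of all windows. Only this spelling was searched, so elements with other letters would be missed.

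From squalene to cholesterol, 6 of 11 genes rose, none fell and 5 did not pass, with a median of 0.65. All 11 fold changes were above 0, from 0.04 to 1.42. FDFT1, the squalene synthase that commits farnesyl diphosphate to sterols, had 17452 and 18303 in KO cells and 7657 and 8879 in WT cells. It rose by 1.11 (the authors' deposited table, SE 0.15, adjusted p 2.51e-11), and the ATAC peaks within 1 Mb of it had a median of 0.80, leaving 0.31 when that was taken off, and it was then not called. MSMO1, the sterol methyl oxidase, had 2785 and 2726 in KO, above both WT values of 1304 and 756. Its rise of 1.42 was the largest among the enzymes (the authors' deposited table, SE 0.24, adjusted p 8.74e-08). CYP51A1, the lanosterol demethylase, had 5769 and 5896 in KO and 3320.0 and 2648 in WT, a rise of 0.97 (the authors' deposited table, SE 0.17, adjusted p 5.57e-07). It has 3 pseudogenes named after it and shares 68.2% of its exonic bases with a protein-coding gene on its own strand that has no symbol, so its value is uncertain to that extent.

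The other 3 that rose did so by less. LSS, the lanosterol synthase, had 7463 and 7659 in KO and 4246 and 5159.9 in WT (the authors' deposited table, log2 0.69, SE 0.16, adjusted p 3.78e-04). SC5D, a sterol desaturase, had 7305 and 7704 in KO and 5259 and 3888 in WT (the authors' deposited table, log2 0.71, SE 0.18, adjusted p 8.49e-04). NSDHL, a sterol dehydrogenase, had 1412 and 1323 in KO and 855 and 889 in WT (the authors' deposited table, log2 0.65, SE 0.20, adjusted p 0.00808). In each of them both KO libraries exceeded both WT libraries.

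SQLE, the squalene epoxidase that begins the oxygen-dependent part, did not pass, with 4597 and 4624 normalised counts in KO and 4644 and 4077 in WT (the authors' deposited table, log2 0.08, SE 0.16, adjusted p 0.821). The ATAC peaks around it had a median of -0.54, and with that taken off SQLE stood at 0.62 and was called (adjusted p 0.00162 in a Wald test with the SE unchanged). With the median RNA change of its chromosome taken off instead, SQLE stood at -0.18 and was not called. DHCR7, the reductase of the last step, had 4098 and 3998 in KO, inside the WT values of 3582 and 4308. Its log2 change was 0.04 (the authors' deposited table, SE 0.17, adjusted p 0.927). EBP, a sterol isomerase, TM7SF2, a sterol reductase, and HSD17B7, a sterol ketoreductase, did not pass, and the authors' deposited table gives them log2 changes of 0.21, 0.51 and 0.09.

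**Figure D2:**
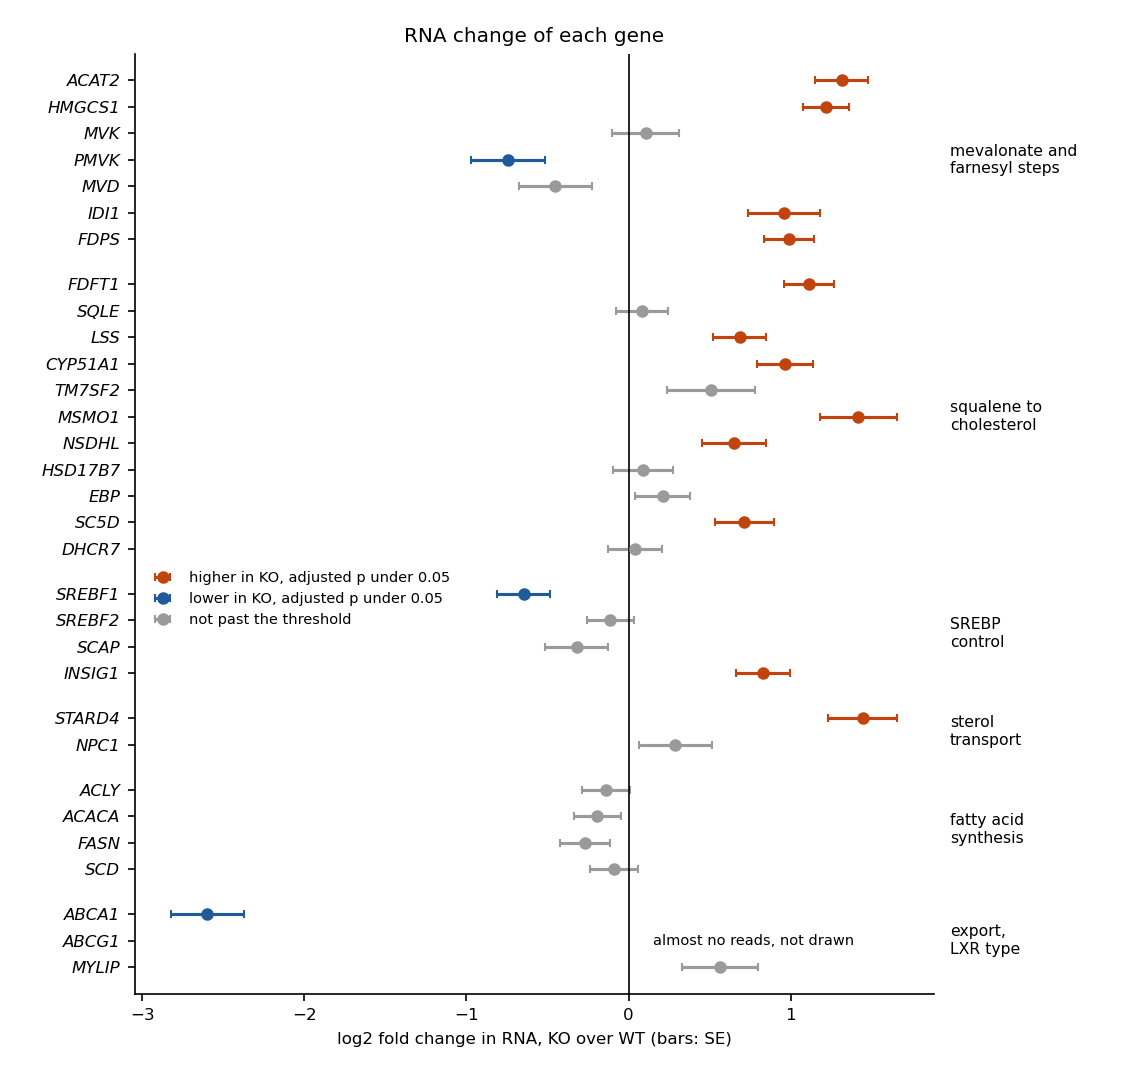
Log2 fold change in RNA of the genes, KO over WT, with its SE, grouped by role, from the authors' tables. Called enzymes of cholesterol synthesis lie between 0.65 and 1.42 apart from PMVK at -0.74, the 4 fatty acid synthesis genes lie just below 0, and ABCA1 is at -2.60.

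Among the genes that control SREBP, INSIG1 rose, SREBF1 fell, and SREBF2 and SCAP did not pass. INSIG1, the retention protein that is itself a target of SREBP, had 19416 and 19464 in KO cells and 12371 and 9548 in WT cells. It rose by 0.83 (the authors' deposited table, SE 0.17, adjusted p 1.41e-05). SREBF1, which encodes the SREBP known mainly for fatty acid genes and is a target of LXR, had 2419 and 2743 in KO and 3922 and 4168 in WT. It fell by 0.65 (the authors' deposited table, SE 0.17, adjusted p 0.00110). SREBF2, which encodes the SREBP known mainly for cholesterol genes, had 9360.3 and 9368 in KO and 10349.8 and 9914 in WT (the authors' deposited table, log2 -0.11, SE 0.15, adjusted p 0.683). SCAP, the escort protein, had 1118 and 1085 in KO and 1315 and 1438 in WT (the authors' deposited table, log2 -0.32, SE 0.19, adjusted p 0.265).

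STARD4, a sterol carrier between membranes that SREBP induces, had the highest fold change of the 31 genes, within its SE of that of MSMO1. It had 3311 and 3392 in KO, against 1489.6 and 969 in WT (the authors' deposited table, log2 1.44, SE 0.21, adjusted p 8.42e-10). NPC1, which lets cholesterol out of lysosomes, had 942 and 868 in KO and 828 and 651 in WT and did not pass (the authors' deposited table, log2 0.29, SE 0.23, adjusted p 0.442). The promoter windows of INSIG1, at chr7:155297628-155297927 on the plus strand, and of STARD4, at chr5:111512486-111512785 on the minus strand, are given for comparison with those above, in the same notation.
INSIG1: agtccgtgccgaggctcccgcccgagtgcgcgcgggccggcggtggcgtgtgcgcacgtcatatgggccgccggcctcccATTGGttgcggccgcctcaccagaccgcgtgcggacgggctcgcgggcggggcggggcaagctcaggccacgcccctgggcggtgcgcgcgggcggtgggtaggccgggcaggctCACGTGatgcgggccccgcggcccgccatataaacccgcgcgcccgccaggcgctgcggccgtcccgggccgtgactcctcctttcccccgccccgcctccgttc
STARD4: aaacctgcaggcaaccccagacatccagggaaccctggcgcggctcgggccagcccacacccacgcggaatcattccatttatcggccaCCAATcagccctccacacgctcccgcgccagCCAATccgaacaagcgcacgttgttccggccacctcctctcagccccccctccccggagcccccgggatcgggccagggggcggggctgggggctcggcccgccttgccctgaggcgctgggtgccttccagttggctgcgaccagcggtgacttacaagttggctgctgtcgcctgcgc
INSIG1 had 1 CCAAT box and 1 E-box there and STARD4 had 2 CCAAT boxes and no E-box. E-boxes were in 7.26% of all promoter windows and in those of 5 of the 26 members.

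None of the 4 fatty acid synthesis genes was called by the authors' DESeq2 test, and their log2 changes lay between -0.27 and -0.09. At an unadjusted p under 0.05 the count was 0 as well, and limma called 0. All 4 are highly expressed here, and SCD, the stearoyl-CoA desaturase, had the highest mean per kilobase of exon of the 31 genes, at 7865 normalised counts. SCD had 39823 and 40100.5 in KO, against 45063 and 40027 in WT (the authors' deposited table, log2 -0.09, SE 0.15, adjusted p 0.762). FASN, the fatty acid synthase, had 26916 and 27123 in KO and 29751 and 35372 in WT (the authors' deposited table, log2 -0.27, SE 0.15, adjusted p 0.229). ACLY, which makes cytosolic acetyl-CoA for both pathways, had 22561 and 22481 in KO and 23261 and 26316 in WT (the authors' deposited table, log2 -0.14, SE 0.15, adjusted p 0.604). ACACA, the carboxylase that makes malonyl-CoA, had 10415 and 10941 in KO and 12215 and 12224 in WT. Both KO libraries lay below both WT libraries for ACLY, ACACA and FASN, as for 30.3% of all genes, and those of SCD overlapped the WT range. The absence of calls depended on the WT libraries. Without WT library a, limma called ACLY, FASN and ACACA lower, and without WT library b it called FASN and SCD lower. These fits keep a single WT library, and in both of them limma called more genes over the whole table too, at the shares given further on. The calls are therefore not particular to these genes.

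ABCA1, the pump that loads cholesterol onto apolipoproteins, had the largest change in either direction of the 31 genes. It had 231 and 278 normalised counts in KO cells and 1612 and 1463 in WT cells, so that the higher KO library was far under the lower WT library. It fell by 2.60 on the log2 scale (the authors' deposited table, SE 0.22, adjusted p 7.82e-29), which leaves 0.165 of the WT level. ABCA1 lies on chromosome 9, at 104781006 to 104928155 on the minus strand. ABCG1, the other pump, was at or near 0 in every library, with 0 and 9.71 normalised counts in KO and 9.21 and 0 in WT, and no fold change is given for it. MYLIP had 803 and 806 in KO and 592 and 495 in WT, and did not pass (the authors' deposited table, log2 0.56, SE 0.23, adjusted p 0.0729).

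When each library was left out in turn and the rest tested with limma on log2 of the normalised count plus 1, all 15 called genes kept their direction. This was fixed in advance, since both KO libraries of each lay outside the range of the WT libraries. Without WT library a all 15 were called, and without WT library b all but PMVK were. Further members were called as well, without WT library a the 8 genes SQLE, NPC1 and MYLIP (higher) and MVD, SCAP, ACLY, FASN and ACACA (lower), where 50.7% of all genes were called, and without WT library b the 6 genes EBP, TM7SF2 and MYLIP (higher) and SREBF2, FASN and SCD (lower), where 28.1% were. Without KO library a or b none was called, where 9 and 11 of the 31 had an unadjusted p under 0.05, and 0 of 16370 genes of the whole table were called by limma, against 1573 and 1644 at an unadjusted p under 0.05. The spread is then taken from the WT pair alone, and the lone KO library is assumed to vary like it. Tested against a minimum change of 1.5-fold, 6 of the 15 passed, where 3.94% of all genes did, which were ACAT2, HMGCS1, FDFT1, MSMO1, STARD4 and ABCA1. With all 4 libraries limma called 13 of the 15, where it called 13.4% of all genes, with an adjusted p of 0.0565 for IDI1 and 0.0638 for PMVK.

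At the start sites, 9 of the 12 genes with higher RNA had no called promoter peak. Most promoter peaks of the whole table were not called either, so this is not particular to these genes. Of the 26 promoter peaks of the members, 3 were higher in KO and 6 lower. Over all 8420 promoter peaks 34.2% were called, 14.2% higher and 20.0% lower, and the members were near that share. The 3 that were higher belonged to ACAT2, FDFT1 and SREBF2, and the 6 that were lower to SQLE, INSIG1, NPC1, ABCA1 and, with 2 peaks, PMVK. The promoter peaks of the 9 genes had log2 changes from -0.12 for HMGCS1 to 0.06 for FDPS in the authors' deposited table. HMGCS1 had 2711 and 2478 normalised counts at its promoter in KO and 2762 and 2884 in WT (the authors' deposited table, SE 0.055, adjusted p 0.0747), and limma gave it an adjusted p of 0.0216, lower in KO. MSMO1 had 2249 and 2219.6 in KO and 2308 and 2132 in WT (the authors' deposited table, log2 0.01, SE 0.06, adjusted p 0.933). STARD4 had 1637 and 1687 in KO and 1569 and 1646 in WT (the authors' deposited table, log2 0.05, SE 0.06, adjusted p 0.604). The KO and WT counts overlapped at the promoters of MSMO1 and STARD4, and at that of HMGCS1 both KO libraries were below both WT libraries, as at 45.2% of all promoter peaks.

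The promoter peaks of ACAT2, FDFT1 and SQLE moved in the direction of the peaks around them. ACAT2 had 2751 and 2806 in KO and 2013 and 1875 in WT, a rise of 0.51 (the authors' deposited table, SE 0.06, adjusted p 1.73e-18), beside a median of 0.54 for the peaks within 1 Mb. FDFT1 had 1750.0 and 1775 in KO and 1065 and 1056 in WT, a rise of 0.73 (the authors' deposited table, SE 0.07, adjusted p 2.22e-24), beside a median of 0.80. SQLE had 794 and 886 in KO and 1689 and 1561 in WT, and it fell by 0.96 (the authors' deposited table, SE 0.08, adjusted p 3.48e-30), beside a median of -0.54. The part of these regional shifts in the RNA of the 3 genes was not tested. SREBF2 had 1461 and 1442 in KO and 1226 and 1272 in WT (the authors' deposited table, log2 0.22, SE 0.07, adjusted p 0.00752) and a regional median of 0.01.

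INSIG1 had less open chromatin at its promoter and more RNA. The promoter peak had 1534 and 1418 in KO and 2008 and 1869 in WT (the authors' deposited table, log2 -0.39, SE 0.07, adjusted p 6.91e-08), and an intronic peak 1037 bp downstream fell by 0.40. Of its distal peaks 2 were higher and 1, at 92104 bp ahead of the start site, was lower. The one at 15019 bp past the start site, intergenic, had 417 and 419.5 in KO and 161 and 169 in WT, a rise of 1.34 (the authors' deposited table, SE 0.15, adjusted p 2.02e-16). The one at 13873 bp ahead of it was small, with 43.6 and 43.9 in KO and 11.8 and 9.53 in WT (the authors' deposited table, log2 2.03, SE 0.52, adjusted p 5.11e-04).

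HMGCS1 also had a distal peak that changed while its promoter was not called. The peak is intergenic, 29684 bp past the start site and beyond the end of the gene, at chr5:43281874-43285119 on hg38. It had 1067 and 1116 normalised counts in KO and 310.5 and 286 in WT, and rose by 1.87 (the authors' deposited table, SE 0.11, adjusted p 9.06e-67), with a regional median of -0.05. Smaller distal peaks that rose were assigned to MVK at 57598 bp (log2 1.21), to ACACA at 14614 bp (1.44) and to MYLIP at 139167 bp upstream (1.30), with adjusted p from 1.31e-06 to 0.00136 in the authors' deposited table. The assignment is to the nearest annotated start site and says nothing of which gene a peak acts on.

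**Figure D3:**
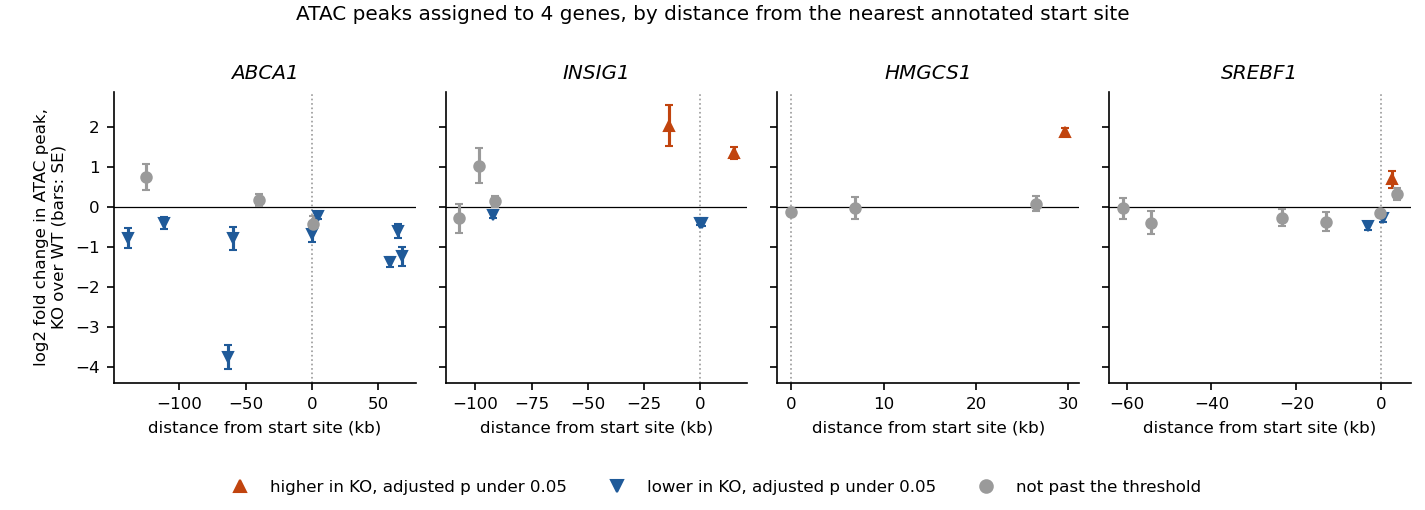
Log2 fold change of the ATAC peaks assigned to ABCA1, INSIG1, HMGCS1 and SREBF1, KO over WT with its SE, against distance from the nearest annotated start site. ABCA1 has 9 called peaks, all lower, with the deepest at -3.76, while INSIG1 and HMGCS1 have their increases at distal peaks.

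Accessibility around ABCA1 was lower, as its RNA was. Of its 12 peaks 9 were lower, and 3 did not pass, where 15.5% of all peaks were lower and 20.4% were higher. The promoter peak had 152 and 133 in KO and 235 and 223 in WT, and it fell by 0.68 (the authors' deposited table, SE 0.19, adjusted p 0.00161). The deepest fall was in an intergenic peak 63146 bp upstream, with 26.0 and 13.2 in KO and 289.6 and 252 in WT (the authors' deposited table, log2 -3.76, SE 0.30, adjusted p 3.93e-33). Inside the gene, a peak at 59024 bp had 246 and 262 in KO and 659 and 665 in WT (the authors' deposited table, log2 -1.38, SE 0.12, adjusted p 1.81e-26). Another at 67595 bp had 82.6 and 72.5 in KO and 171 and 197 in WT (the authors' deposited table, log2 -1.24, SE 0.23, adjusted p 1.08e-06). The KO and WT counts did not overlap in any of these 4 peaks, with KO lower, as in 36.7% of all peaks, and the peaks of other genes within 1 Mb had medians of -0.08 and -0.07.

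Shown here are the promoter of ABCA1, at chr9:104928106-104928405 on the minus strand, and the central 300 bases of its peak 63146 bp upstream and of the distal peak of HMGCS1. Changes at these peaks were described above, and their part in the RNA of the 2 genes was not tested. The upstream peak had the deepest fall among the 111 peaks and the HMGCS1 peak the lowest adjusted p. The peak centres are at chr9:104991152-104991451 and chr5:43283347-43283646, on the plus strand of hg38, with capitals as above.
ABCA1 promoter: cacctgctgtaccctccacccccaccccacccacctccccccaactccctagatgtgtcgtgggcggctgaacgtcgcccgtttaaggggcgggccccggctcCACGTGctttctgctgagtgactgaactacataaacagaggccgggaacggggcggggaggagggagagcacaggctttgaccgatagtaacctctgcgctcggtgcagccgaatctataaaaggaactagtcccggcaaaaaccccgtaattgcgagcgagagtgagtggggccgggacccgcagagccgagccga
ABCA1 upstream peak: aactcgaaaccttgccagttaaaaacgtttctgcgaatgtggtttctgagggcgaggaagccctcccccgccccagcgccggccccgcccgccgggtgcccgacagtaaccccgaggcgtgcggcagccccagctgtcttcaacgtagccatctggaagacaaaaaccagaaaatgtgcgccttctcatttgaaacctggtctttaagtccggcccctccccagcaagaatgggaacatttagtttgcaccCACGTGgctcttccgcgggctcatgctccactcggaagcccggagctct
HMGCS1 distal peak: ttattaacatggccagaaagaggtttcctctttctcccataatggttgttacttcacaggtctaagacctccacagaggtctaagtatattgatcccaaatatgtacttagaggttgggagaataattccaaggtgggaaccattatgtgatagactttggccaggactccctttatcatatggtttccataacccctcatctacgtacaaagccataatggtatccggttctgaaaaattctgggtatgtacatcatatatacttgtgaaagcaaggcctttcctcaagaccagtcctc
Both ABCA1 stretches held 1 E-box and no CCAAT box, and the HMGCS1 stretch held neither. In the central 300 bases of all 61892 peaks outside promoters, 4.53% held an E-box, 30.8% a CCAAT box and 2.07% the sterol regulatory element. The direct repeat of AGGTCA with 4 bases between was searched on both strands, by these exact letters alone. It was in 0 of the members' windows and in 7 of all 35116 windows (0.0199%). With so few exact matches, 0 among the members was likely in advance, and repeats with other letters would be missed. The search therefore cannot tell whether such an element is absent from ABCA1 or the other members. A match is a run of letters, and no binding was measured at any of them.

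Other peaks of the export genes and of SREBF1 were mixed. ABCG1, with almost no RNA, had 8 peaks, of which 1 was higher and 2 lower. Its largest change was an intronic peak 501 bp past an annotated start site, with 29.7 and 19.8 in KO and 116 and 109 in WT (the authors' deposited table, log2 -2.17, SE 0.35, adjusted p 4.84e-09). SREBF1 had 9 peaks, of which 1 was higher and 2 lower. A peak 3186 bp upstream of it had 589.5 and 650.2 in KO and 846 and 869.6 in WT (the authors' deposited table, log2 -0.47, SE 0.10, adjusted p 1.09e-05). PMVK, whose RNA fell, had 3 peaks, all lower, from -0.33 to -0.22. Over all 111 peaks of the members 15 were higher and 23 lower, 38 together, where 35.9% of all peaks were called.

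**Figure D4:**
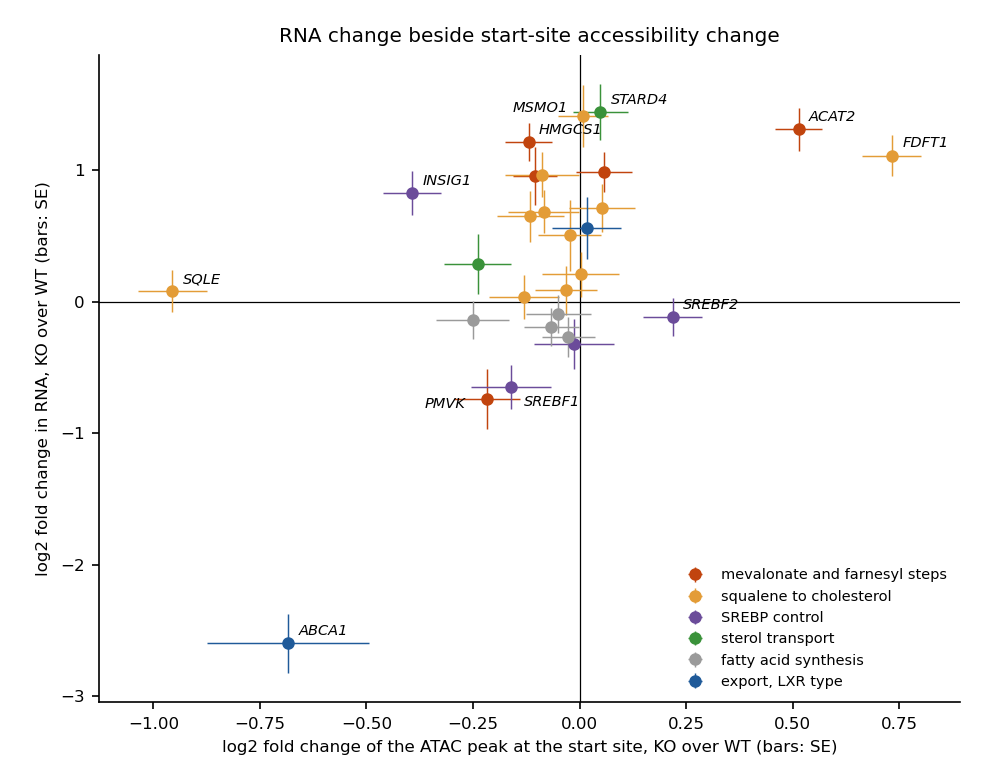
Log2 fold change in RNA against that of the ATAC peak at the start site, KO over WT with SE on both axes. Drawn are the members with such a peak annotated to them, apart from ABCG1. Most cholesterol enzymes lie high on the RNA axis and near 0 on the ATAC axis, with ACAT2 and FDFT1 to the right, SQLE to the left, and ABCA1 low on both.

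Across the 29 members with a start-site peak annotated to them, the RNA and ATAC changes had a Pearson r of 0.46 and a Spearman rho of 0.39. MVD and MVK were left out, as the peaks over their promoter windows are annotated to SNAI3-AS1 and MMAB. The peak over MVD fell by 0.59 (the authors' deposited table, SE 0.07, adjusted p 3.61e-16). The one over MVK was not called (the authors' deposited table, log2 -0.10, SE 0.07, adjusted p 0.274). Without ABCG1 and ABCA1 they were 0.35 and 0.38 over 27 genes. This is a description over genes that share the same 4 libraries of each assay, and genes are not independent replicates.

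Related lipid genes outside the list, which were picked by role with earlier results of these data known, moved both ways. There were 63 such genes, of which 60 were tested, 9 rose and 9 fell, against 9.89% and 9.28% over all tested genes, and their median was 0.03. With the median of the ATAC peaks within 1 Mb taken off, 6 rose and 7 fell, where 17.3% of all genes were then called in either direction. The isoprenoid branches, which draw on farnesyl diphosphate, had 3 of 8 higher. NUS1, a subunit of the enzyme that makes dolichol, had 8089 and 8343 in KO and 4479 and 3809.6 in WT (the authors' deposited table, log2 0.99, SE 0.16, adjusted p 2.61e-08). FNTA, a subunit of the prenyl transferases, and PDSS2, which builds the ubiquinone tail, rose too, and the log2 values in the authors' deposited table are 0.77 and 0.75. The peaks around NUS1, FNTA and PDSS2 had medians of 0.58, 0.93 and 0.61. With these taken off none of the 3 was called, at 0.41, -0.16 and 0.15 (adjusted p 0.0604, 0.667 and 0.777 in a Wald test with the SE unchanged).

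Genes that elongate, desaturate or activate fatty acids had 2 of 15 higher and 4 lower, with a median of -0.38. FADS1, a desaturase of polyunsaturated fatty acids, had 137 and 141 in KO and 1182 and 1173 in WT, and it fell by 3.08 (the authors' deposited table, SE 0.24, adjusted p 3.59e-35). ELOVL6, an elongase, had 1229 and 1264 in KO and 3615 and 2786 in WT, and it fell by 1.36 (the authors' deposited table, SE 0.19, adjusted p 6.09e-11). ACSL1, which activates long-chain fatty acids, had 6333 and 6213 in KO and 2893 and 2564 in WT, a rise of 1.20 (the authors' deposited table, SE 0.16, adjusted p 4.59e-12).

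Among 9 tested genes of oxysterol and LXR biology 2 rose and 2 fell. GPR183, a receptor for oxysterols on B cells, had 990.2 and 968 in KO, against 120.5 and 86.5 in WT (the authors' deposited table, log2 3.22, SE 0.27, adjusted p 1.60e-29). RXRA, which encodes the partner of LXR, had 106 and 79.6 in KO and 8.44 and 20.9 in WT (the authors' deposited table, log2 2.71, SE 0.73, adjusted p 0.00213). SMPDL3A, a phosphodiesterase and LXR target, had no read in either KO library and 72.1 and 54.4 normalised counts in WT, which is at least 22.1-fold lower in KO against a floor of 3 counts per library (the authors' deposited table, adjusted p 9.90e-06). LPCAT3, a phospholipid acyltransferase and LXR target named after its value was seen, fell by 1.00 (the authors' deposited table, SE 0.36, adjusted p 0.0308), and was not called by limma (adjusted p 0.0831) or with its regional median of -0.31 taken off (adjusted p 0.184). NR1H2 and NR1H3, which encode the LXR receptors and are named for that role, did not pass, at log2 changes of -0.10 and 0.23 by the authors' deposited table.

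Of 10 genes of SREBP processing 2 rose and 2 fell. MBTPS1, a protease that cuts SREBPs, had 2492 and 2353 in KO and 3505 and 3739.9 in WT. It fell by 0.58 (the authors' deposited table, SE 0.16, adjusted p 0.00378), but the ATAC peaks within 1 Mb had a median of -0.61, and with that taken off its change was 0.03, on the other side of 0 (adjusted p 0.944). ERLIN2, a scaffold protein, rose by 0.77 (the authors' deposited table, adjusted p 0.00140), with 1714 and 1657 in KO and 878 and 1099 in WT. The peaks around it had a median of 0.77, which leaves 0.0028 (adjusted p 0.996). MBTPS2, the second such protease, was named after its value was seen, and rose by 0.69 (the authors' deposited table, adjusted p 0.0470), and was called neither by limma (adjusted p 0.118) nor with its regional median of 0.29 taken off (adjusted p 0.344). The part of these regional shifts was not tested. Of 11 genes of sterol storage and transport 0 were called by the authors' DESeq2 test, 2 had an unadjusted p under 0.05, and limma called 0. LIPA, the lysosomal lipase, came nearest (the authors' deposited table, log2 0.53, adjusted p 0.0944). Of 7 genes of fatty acid oxidation, PPARA, which encodes a lipid-sensing receptor, fell by 0.95 (the authors' deposited table, SE 0.24, adjusted p 7.68e-04), and no other passed.

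**Figure D5:**
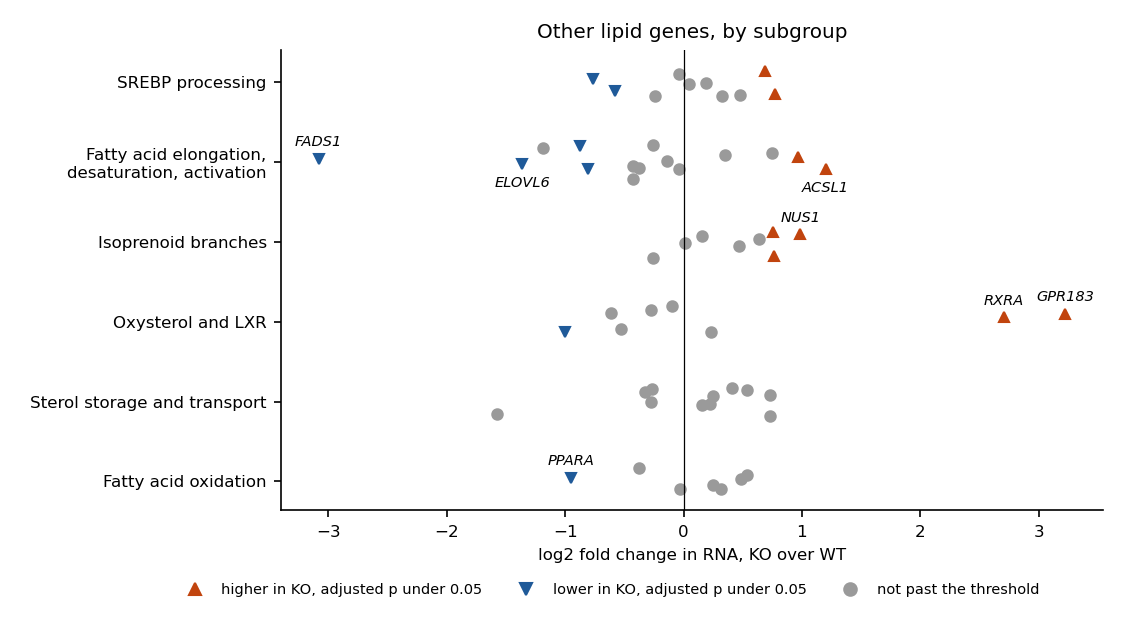
Log2 fold change in RNA, KO over WT, of the tested lipid genes outside the list, by subgroup, with SMPDL3A left out because both KO libraries are at 0. FADS1 at -3.08 and GPR183 at 3.22 lie farthest from 0, and the 3 called genes of the isoprenoid branches lie above 0, where FNTA would be at -0.16 with its regional median taken off.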

How the data were processed

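Poly(A) RNA-seq and ATAC-seq of RGS-SE KO and WT Raji cells were compared with 2 libraries per genotype and assay. Per the submitters' processing notes the tools were Trim Galore, Trimmomatic, cutadapt, STAR, Bowtie2, featureCounts, HOMER and DESeq2, on GRCh38 (hg38), while their versions were not given in the sources used here. For each gene or peak the tables deposited by the authors hold, per the file headers, a mean normalised signal over the libraries, a log2 fold change with its SE, a Wald statistic (a score), and p-values with Benjamini-Hochberg adjusted p-values. The peak annotation deposited by the authors (gene name, annotation class and other text columns) is of the HOMER kind. Calls use the deposited adjusted p under 0.05. The planned count model was not run: the tables hold no counts, so the deposited test was kept and counts recovered from them (next) were tested with limma.

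The deposited means carry 15 digits, and they allowed whole counts per library to be recovered: the size factors were found by lattice reduction, and a row was accepted only where exactly one set of 4 counts also returned the deposited fold change, within 0.001 on the log2 scale for means up to 2000 and 2e-06 above. This gave 21571 of 25377 RNA rows and 70308 of 70312 peaks, with all 31 genes and 111 peaks among them. On simulated data 60 of 60 rows came back in each assay. The simulated means did not reach those of ACAT2, HMGCS1, IDI1, FDPS, FDFT1, LSS, SC5D, INSIG1, SREBF2, ACLY, ACACA, FASN and SCD. The simulation therefore does not cover the RNA rows of these genes. Simulated fold changes and SEs were made with the same model and size factors that the recovery used, so neither the model nor the size factors were tested. The direction of the fold changes rests on the sign of a peak inside the interval that the labels give. Recovered counts were tested with limma 3.58.1 in R 4.3.3 on log2 of the normalised count plus 1. In simulated RNA data limma called 92 of 100 rows with a log2 change of 1.0, 50 of 50 with 2.0 and 39 of 50 with -1.0. In simulated ATAC data it called 71 of 100, 50 of 50 and 30 of 50. The simulation gave both genotypes the same spread, while the real WT RNA libraries lay farther apart than the KO libraries. Gene positions and exon lengths are from GENCODE release 44. Regional medians are over ATAC peaks of other genes within 1 Mb, where there were at least 5. Where a median was taken off, the remaining log2 change was divided by the unchanged SE in a Wald test. Those p-values leave out the spread of the median, and for RNA they treat an ATAC change as an equal RNA change.

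Named were all members, with full statistics for called ones and the 2 of highest mean per role among the rest, up to 3 other lipid genes per subgroup by adjusted p, and promoter peaks of called members with up to 3 further peaks per member. Members and lists were chosen with earlier results of these data known. One gene of the SREBP processing list is counted but not reported here.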

Additional observations from a re-analysis of the deposited data

How the results depend on the processing

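No paired analysis was possible because the recovered libraries could not be tied to the replicate numbers of the labels. A count model was not run on the recovered counts, for which limma was used, and the limma fits and the fits without 1 library were chosen after seeing the data. Tested against a minimum change of 1.5-fold, 6 of the members' genes were called (5 higher, 1 lower), 671 of all genes, 5 of the other lipid genes, 7 member peaks (3 higher, 4 lower), 1 member promoter peak (0 higher, 1 lower) and 6149 of all peaks. With test statistics scaled to the spread over all rows the counts were 8 (7 higher, 1 lower), 662, 6, 7 (4 higher, 3 lower), 3 (1 lower) and 2352. Peaks with a mean of at least 100 gave 15146 called. Limma called 23 member peaks higher and 29 lower, against 15 and 23. Over all 70308 peaks with recovered counts it called 17866 higher and 15462 lower, where the deposited test called 14332 and 10896 of all peaks. Promoter peaks defined by RefSeq windows, which were not used here for ACAT2, FDFT1, SQLE, FASN and ABCG1, gave 1 higher (SREBF2) and 7 lower, against 3 and 6. Among the 7 is the peak over MVD that is annotated to SNAI3-AS1. Leaving out each library in turn gave 0 to 23 called genes (0 to 15 higher, 0 to 8 lower), 0 to 8306 over all genes and 0 to 43 other lipid genes. The zeros came without a KO library, where 11 and 12 other lipid genes had an unadjusted p under 0.05. The cause of these shifts was not tested.

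Centred on the peaks within 1 Mb, IDI1 and FDFT1 were no longer called and SQLE was called, and RNA changes reversed for MVD (0.0139), DHCR7 (-0.0157), MBTPS1 (0.0313) and FNTA (-0.16). At the peaks, the same centring reversed ACAT2 (-0.0246), FDFT1 (-0.0665 at the promoter, -0.18 in the intron), SC5D (-0.00917) and CYP51A1 (0.00890). Centred on the chromosome, RNA reversed for SQLE (-0.18) and SREBF2 (0.0163) and promoter peaks for LSS (0.0138) and CYP51A1 (0.00614), and the other lipid genes split 7 higher and 11 lower, against 9 and 9. Without 1 library each in turn, the RNA change ran from -0.0104 to 0.18 for SQLE, -0.0562 to 0.28 for MVK, -0.0898 to 0.18 for DHCR7 and -1.68 to 1.75 for ABCG1, which was at -1.64 without WT library b. The promoter peaks ran from -0.16 to 0.000222 for LSS and -0.0468 to 0.0674 for MSMO1. Of the changes that reversed, those in RNA of MBTPS1 and FNTA and at the peaks of ACAT2 and FDFT1 had been called, and the others had not.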
